A study of Mus musculus with 16 samples.

Results

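The genes described here are 39 mouse genes of DNA replication and mitosis. They were followed in samples labelled as tumours of the ID8 and KPC lines, with and without Trp53bp1, which encodes 53BP1, a factor of double-strand break repair. The 39 genes were taken by symbol from a fixed list and were 39 of the 18635 genes listed in the deposited count tables. The rule itself used no measured value, but the list was chosen with earlier results of these data known. The list was divided by function into 16 S phase members (Mcm2, Mcm3, Mcm4, Mcm5, Mcm6, Mcm7, Pcna, Ccne1, Ccne2, E2f1, Rrm1, Rrm2, Tyms, Cdc6, Cdt1 and Gins2) and 23 mitotic members (Mki67, Top2a, Cenpf, Cenpe, Ccnb1, Ccnb2, Ccna2, Cdk1, Aurka, Aurkb, Bub1, Bub1b, Plk1, Kif11, Kif20a, Kif23, Kif2c, Tpx2, Birc5, Cdc20, Ube2c, Nusap1 and Prc1). All 39 were listed in both lines, and all 39 passed the filter on low counts in both, so no member was left out of any comparison.

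RNA sequencing covered 16 libraries in 4 groups. ID8, a mouse ovarian cancer line of surface epithelial origin, had 3 wild-type and 3 Trp53bp1 knockout samples. KPC, a mouse pancreatic cancer line, had 5 wild-type and 5 Trp53bp1 knockout samples. All samples are labelled as tumours formed after implantation of the lines into syngeneic mice, with no further treatment, and the ages of the mice are not given in the sources used here. The labels name 1 knockout per line and do not give the deleted part of the gene or the number of clones, so the effect of the knockout and that of a particular clone cannot be told apart. The study compared each knockout with its wild-type line in the setting of antitumour immunity.

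DNA replication begins when Cdc6 and Cdt1 load the ring of Mcm2 to Mcm7 onto origins in G1, and the ring is turned into the active helicase in S phase by cyclin E and its kinase and by the GINS complex. Nucleotides are made by ribonucleotide reductase (Rrm1, Rrm2) and thymidylate synthase (Tyms), and much of this group is transcribed under E2F control. The mitotic genes peak later, in G2 and M, and encode the cyclins and kinases of mitotic entry, the kinetochore and its checkpoint, the spindle motors and the machinery of anaphase and cytokinesis, and many of them carry NF-Y sites and CHR elements, the latter bound by the DREAM and B-MYB complexes. In bulk RNA, transcript levels of these genes rise with the share of cycling cells, and fewer cycling cells and less RNA per cycling cell cannot be told apart.

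The targeted gene was lower in every knockout library. In ID8, Trp53bp1 was 44.7, 49.4 and 44.1 CPM (counts scaled to library size) in wild type and 17.8, 18.5 and 18.8 CPM in knockout, 39.9% of the wild-type mean (log2 fold change -1.33, SE 0.0667, edgeR adjusted p = 1.15e-10; exact two-sided permutation p = 0.1, the smallest that 3 against 3 allows). In KPC it was 50.5, 50.3, 54.0, 46.7 and 56.0 CPM in wild type and 27.9, 37.1, 37.9, 34.9 and 32.9 CPM in knockout, 66.3% of the wild-type mean (log2 fold change -0.59, SE 0.0898, edgeR adjusted p = 0.00401; exact two-sided permutation p = 0.00794). Wild type and knockout were separated in both lines, and the residual level was higher in KPC. Totals per library ran from 17902867 to 19727536 counts, and replicates varied more in KPC (biological coefficient of variation 25.1%) than in ID8 (5.08%), so that a smaller change could be called in ID8. The ID8 libraries differed from the KPC libraries in markers of other cells. Ptprc, the pan-leukocyte marker, and Cdh5, an endothelial marker, had 0 counts in every ID8 library, where 3 counts correspond to 0.152 to 0.158 CPM, but 51.0 to 222 CPM (Ptprc) and 79.5 to 134 CPM (Cdh5) in KPC. The labels' protocol speaks of RNA from cells, although the samples are named tumours. The epithelial keratin Krt8 was at 995 CPM or more in all 16 libraries, but other epithelial markers differed between the lines. Epcam was at 0.613 to 3.53 CPM in ID8 and 120 to 459 CPM in KPC, and Cldn7 had 0 counts in every ID8 library. Of 7 epithelial markers, 6 were tested in ID8, with 0 called higher and 4 called lower in knockout. Of all genes tested in ID8, 25.5% were called lower.

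The 2 classes differed in their promoter letters. Windows from 250 bases before to 50 bases after the annotated start were available from RefSeq (GRCm38.p6, an earlier build than that of the count tables) for 13 of the 16 S phase and 19 of the 23 mitotic members; Mcm4, Ccne2, Gins2, Ccna2, Aurkb, Kif20a and Tpx2 had none. On either strand, an E2F motif (TTTCCCGC, TTTGGCGC, TTTCGCGC or TTTGCCGC) was found in 6 S phase members (46.2%: Mcm3, Mcm5, Mcm6, Mcm7, Cdc6 and Cdt1), in 1 mitotic member (5.26%: Cdk1) and in 2.6% of the 27025 genes with a window. A CHR motif (TTTGAA or TTCGAA) was found in 2 S phase members (15.4%), 15 mitotic members (78.9%) and 21.7% of all genes. The NF-Y motif CCAAT was found in 8 S phase members (61.5%), 16 mitotic members (84.2%) and 41.1% of all genes. These are matches of letters, described with no test, and do not show that a factor binds. The 150 bases before the start are shown for 4 members on which the expression results turn, Mcm6 and Ccne1 of S phase and Cenpf and Ccnb1 of mitosis, read 5′ to 3′ in the direction of transcription (the minus strand for all 4), with E2F and NF-Y matches in capitals. They lie at chr1:128359706-128359855 (Mcm6), chr7:38107491-38107640 (Ccne1), chr1:189688087-189688236 (Cenpf) and chr13:100786487-100786636 (Ccnb1).
Mcm6: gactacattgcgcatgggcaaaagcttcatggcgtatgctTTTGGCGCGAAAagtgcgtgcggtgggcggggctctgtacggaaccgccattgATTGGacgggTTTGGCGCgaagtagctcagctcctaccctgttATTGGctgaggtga
Ccne1: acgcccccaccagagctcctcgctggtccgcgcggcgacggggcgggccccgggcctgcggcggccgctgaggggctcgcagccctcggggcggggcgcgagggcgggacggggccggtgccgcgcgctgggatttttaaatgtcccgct
Cenpf: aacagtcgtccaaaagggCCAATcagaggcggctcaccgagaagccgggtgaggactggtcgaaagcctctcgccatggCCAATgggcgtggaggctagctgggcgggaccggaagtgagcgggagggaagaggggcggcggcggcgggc
Ccnb1: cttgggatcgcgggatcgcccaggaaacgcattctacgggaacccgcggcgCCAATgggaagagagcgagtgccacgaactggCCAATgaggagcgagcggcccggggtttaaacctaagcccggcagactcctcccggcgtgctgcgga
The Mcm6 stretch held 3 E2F matches, 2 of which overlap into the first capital run, and 2 NF-Y matches read on the opposite strand as ATTGG. Ccne1 held none of the searched letters in its whole window. Cenpf and Ccnb1 held 2 NF-Y matches each and no E2F match; the CHR match of Cenpf lay 2 to 7 bases after the start, outside the printed stretch, and Ccnb1 had no CHR match in its window.

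**Figure D1:**
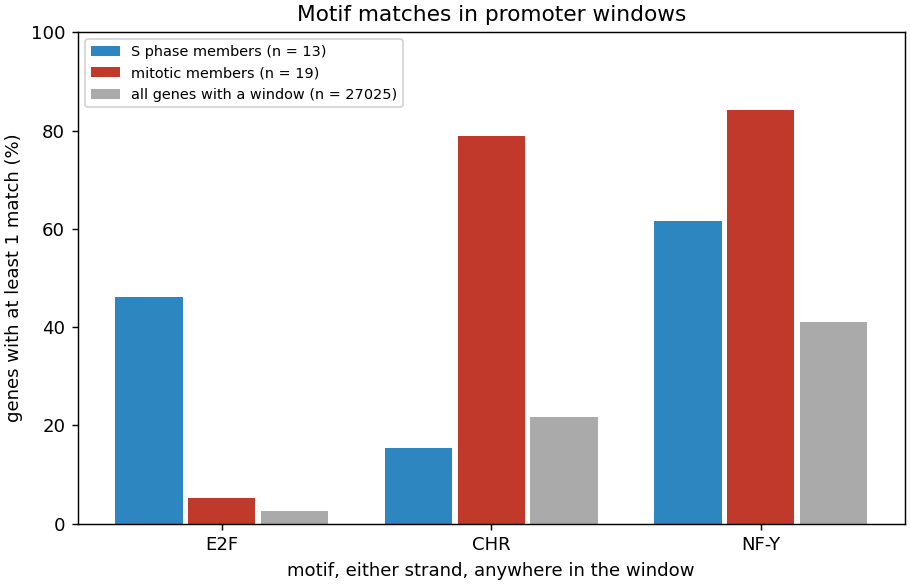
Share of genes (%) whose promoter window holds at least 1 match to each motif on either strand, for the 13 S phase members, the 19 mitotic members and all 27025 genes with a window. E2F letters were in 46.2% of S phase members and 5.26% of mitotic members, and CHR letters in 15.4% and 78.9%.

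In ID8, the knockout came with small shifts in both directions among the S phase genes and with mostly upward shifts among the mitotic genes (positive for 8 of 16 and 19 of 23). Of the 16 S phase members, 5 were higher (Mcm2, Ccne1, Ccne2, Rrm1 and Tyms) and 4 were lower (Mcm3, E2f1, Cdt1 and Gins2) at an edgeR adjusted p under 0.05, and of the 23 mitotic members 7 were higher (Ccnb1, Aurkb, Plk1, Kif11, Kif23, Kif2c and Cdc20) and 1 was lower (Top2a). Together 17 of 39 members were called (43.6%), against 50.8% of the 11933 genes tested, of which 25.4% were higher and 25.5% lower, so being called was no more frequent among the members than among all genes. Ccne1 alone reached 1.5-fold, as 12.9% of all genes tested did. The groups did not overlap for 16 members that were higher and 5 that were lower in knockout, against 29.1% and 28.8% of all genes tested (58% in either direction). The median log2 fold change was -0.02 for the S phase members, 0.09 for the mitotic members and 0.01 for all genes, and the median size of the change was 0.12 for the members and 0.19 for all genes.

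**Figure D2:**
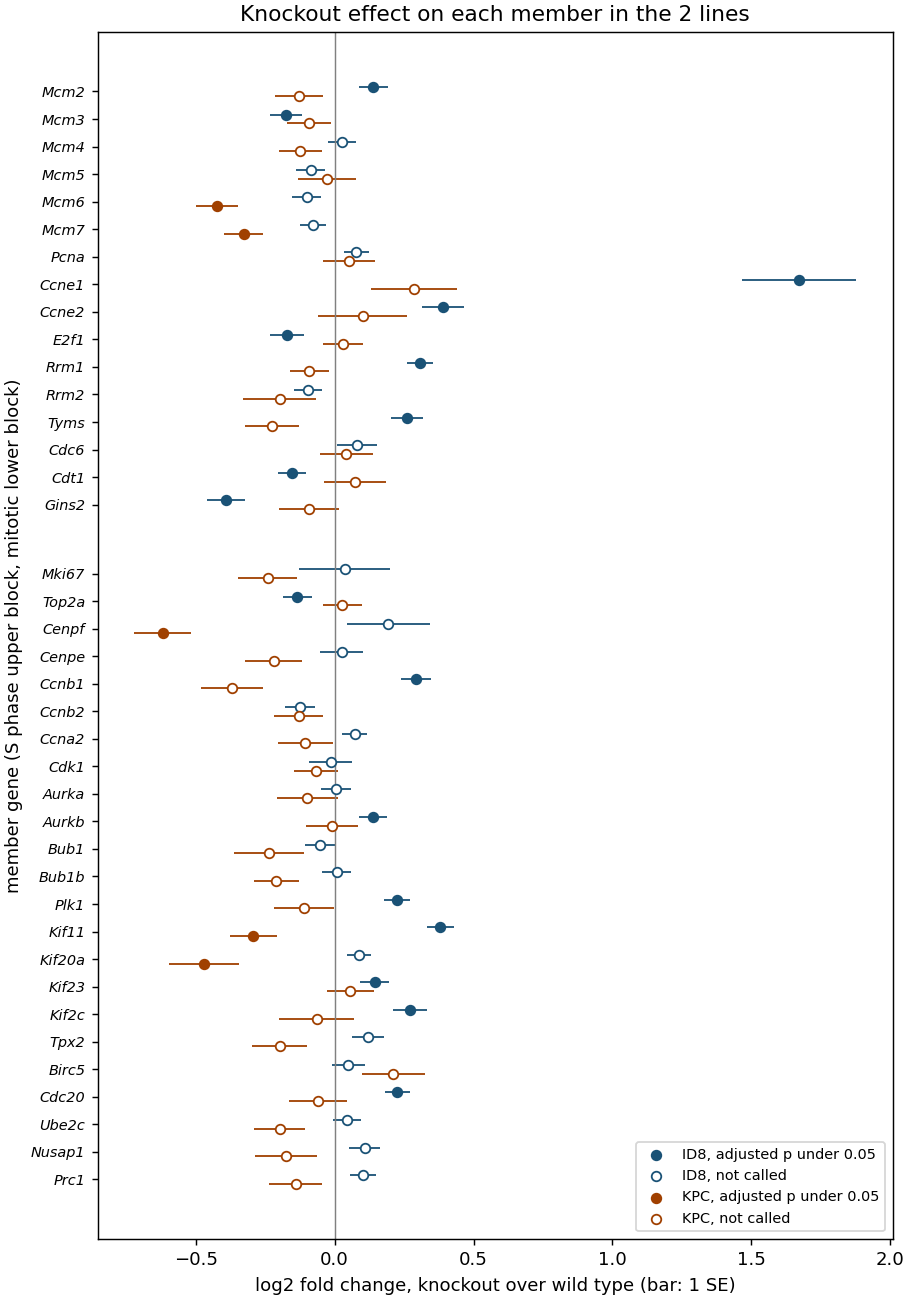
Log2 fold change of each member, knockout over wild type (x axis, bars 1 SE), with S phase members in the upper and mitotic members in the lower block. Filled points passed an adjusted p under 0.05, which 17 members did in ID8 (blue, 12 of them to the right of 0) and 5 in KPC (brown, all to the left of 0).

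Cyclin E1, which drives the entry into S phase, showed the widest change of any member. Ccne1 was 1.31, 1.05 and 1.26 CPM in ID8 wild type (1.21 ± 0.134, SD, n = 3) and 4.09, 2.97 and 4.52 CPM in knockout (3.86 ± 0.799), a log2 fold change of 1.67 (SE 0.206, edgeR adjusted p = 4.6e-06). Every knockout library lay above every wild-type library, from a level that was low in this line. Its paralogue Ccne2 was 17.3, 17.4 and 17.9 CPM in wild type and 24.0, 20.8 and 24.1 CPM in knockout, again without overlap (log2 fold change 0.39, SE 0.0757, edgeR adjusted p = 0.000427). Both E cyclins rose, Ccne1 by 3.19-fold and Ccne2 by 1.31-fold.

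The enzymes of nucleotide supply were divided. Rrm1, the large subunit of ribonucleotide reductase, was 396, 408 and 401 CPM in ID8 wild type and 516, 477 and 499 CPM in knockout (log2 fold change 0.31, SE 0.0465, edgeR adjusted p = 3.95e-05), and Tyms went from 69.9, 76.8 and 71.7 CPM to 91.2, 81.4 and 89.1 CPM (0.26, SE 0.0569, adjusted p = 0.00115). Neither gene's groups overlapped. Rrm2, the small subunit whose supply follows S phase, was 145, 141 and 149 CPM in wild type and 136, 128 and 143 CPM in knockout, with overlapping groups (log2 fold change -0.10, SE 0.0496, adjusted p = 0.118).

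The origin and helicase genes gave no common direction in ID8. Gins2, a GINS subunit, was 47.1, 44.8 and 48.0 CPM in wild type and 39.0, 32.3 and 35.3 CPM in knockout, all knockout libraries lower (log2 fold change -0.39, SE 0.0676, edgeR adjusted p = 0.000148). Cdt1, the licensing factor, fell by 0.15 on the log2 scale (SE 0.0501, adjusted p = 0.0171), while its partner Cdc6 was not called (0.08, SE 0.0723, adjusted p = 0.368). Among the 6 subunits of the Mcm ring, Mcm2 rose (143 ± 4.84 to 157 ± 10.8 CPM, SD, n = 3; log2 fold change 0.14, SE 0.0529, edgeR adjusted p = 0.0369), Mcm3 fell (148 ± 2.90 to 131 ± 11.6 CPM; -0.18, SE 0.0574, adjusted p = 0.0172), and the other four were not called, with log2 fold changes from -0.10 (Mcm6) to 0.03 (Mcm4). E2f1, the transcription factor of the S phase programme, fell from 36.2, 38.7 and 36.7 CPM to 32.7, 32.0 and 34.3 CPM, without overlap (-0.17, SE 0.0597, adjusted p = 0.0248). Pcna, the sliding clamp of the replicative polymerases, was 192, 187 and 191 CPM in wild type and 199, 194 and 208 CPM in knockout, and did not pass the test although its groups did not overlap (0.08, SE 0.0451, adjusted p = 0.165). The smaller of these changes sat next to the threshold, and calls were lost on leaving out 1 ID8 library: Mcm2 without wild-type replicate 2 (adjusted p = 0.0622), wild-type replicate 3 or knockout replicate 3, E2f1 without wild-type replicate 2 (0.0792), knockout replicate 1 or knockout replicate 2, Mcm3 without wild-type replicate 1 or knockout replicate 2, and Cdt1 without wild-type replicate 2. DESeq2 called 13 members in ID8, without Mcm2 (adjusted p = 0.0738), E2f1 (adjusted p = 0.0572), Aurkb and Kif23. In a joint fit with the KPC groups, whose wider spread then enters the test, 3 higher members (Ccne1, Rrm1 and Kif11) and 1 lower member (Gins2) were called in ID8.

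Among the mitotic members of ID8, the 4 of smallest p were all higher in knockout. Kif11, the motor that pushes spindle poles apart, was 170, 182 and 170 CPM in wild type and 233, 219 and 228 CPM in knockout (log2 fold change 0.38, SE 0.0476, edgeR adjusted p = 5.31e-06). Ccnb1, the cyclin of mitotic entry, was 142, 137 and 142 CPM in wild type and 163, 167 and 188 CPM in knockout (0.29, SE 0.0541, adjusted p = 0.000268). For both genes the lowest knockout library was above the highest wild-type library. Cdc20, which activates the anaphase-promoting complex, rose from 127, 125 and 125 CPM to 142, 147 and 152 CPM (0.23, SE 0.0454, adjusted p = 0.000579). Plk1, the polo kinase of spindle assembly, rose from 102, 107 and 111 CPM to 126, 123 and 124 CPM (0.22, SE 0.0473, adjusted p = 0.000889). These groups did not overlap either. Kif2c, a microtubule-depolymerising kinesin, Kif23, of the central spindle, and Aurkb, the chromosomal passenger kinase, rose by 0.27, 0.14 and 0.14 on the same scale. The calls of Kif23 and Aurkb were lost on leaving out wild-type replicate 1, wild-type replicate 2 or knockout replicate 1, Aurkb also without wild-type replicate 3 or knockout replicate 3, and Kif23 without knockout replicate 2.

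Other mitotic genes of ID8 fell or were not called. Top2a, which untangles sister chromatids, was 477, 523 and 456 CPM in wild type and 440, 449 and 437 CPM in knockout (log2 fold change -0.14, SE 0.0522, edgeR adjusted p = 0.0404), and lost its call without wild-type replicate 2 (-0.09, adjusted p = 0.187) or any knockout replicate. Cdk1, the kinase that Ccnb1 activates, was 132, 115 and 127 CPM in wild type and 136, 108 and 126 CPM in knockout (-0.01, SE 0.0777, adjusted p = 0.895). The proliferation antigen gene Mki67 was 242, 324 and 254 CPM in wild type and 296, 308 and 236 CPM in knockout (0.04, SE 0.164, adjusted p = 0.879). For Cdk1 and Mki67 the ranges of the 2 genotypes overlapped throughout. The spread within ID8 groups (SD on the log2 scale) was widest for Ccne1 (0.242), followed by Mki67 (0.217), Cenpf (0.205), Cdk1 (0.136) and Cenpe (0.136). Mki67, Cenpf and Cenpe have the longest transcripts among the members (10061, 11130 and 7910 bases in GENCODE M21), and those of Cdk1 and Ccne1 are shorter (4375 and 2000 bases). For the 3 longest, wild-type replicate 2 was the highest wild-type library, and in that library the other 652 tested genes with transcripts over 8000 bases were 0.12 above their group mean in the median (log2). The part of transcript length in the values of these genes was not tested. Without that library, Cenpf in ID8 was called higher (log2 fold change 0.36, adjusted p = 0.000194) where with all 6 it was not (0.19, adjusted p = 0.337).

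**Figure D3:**
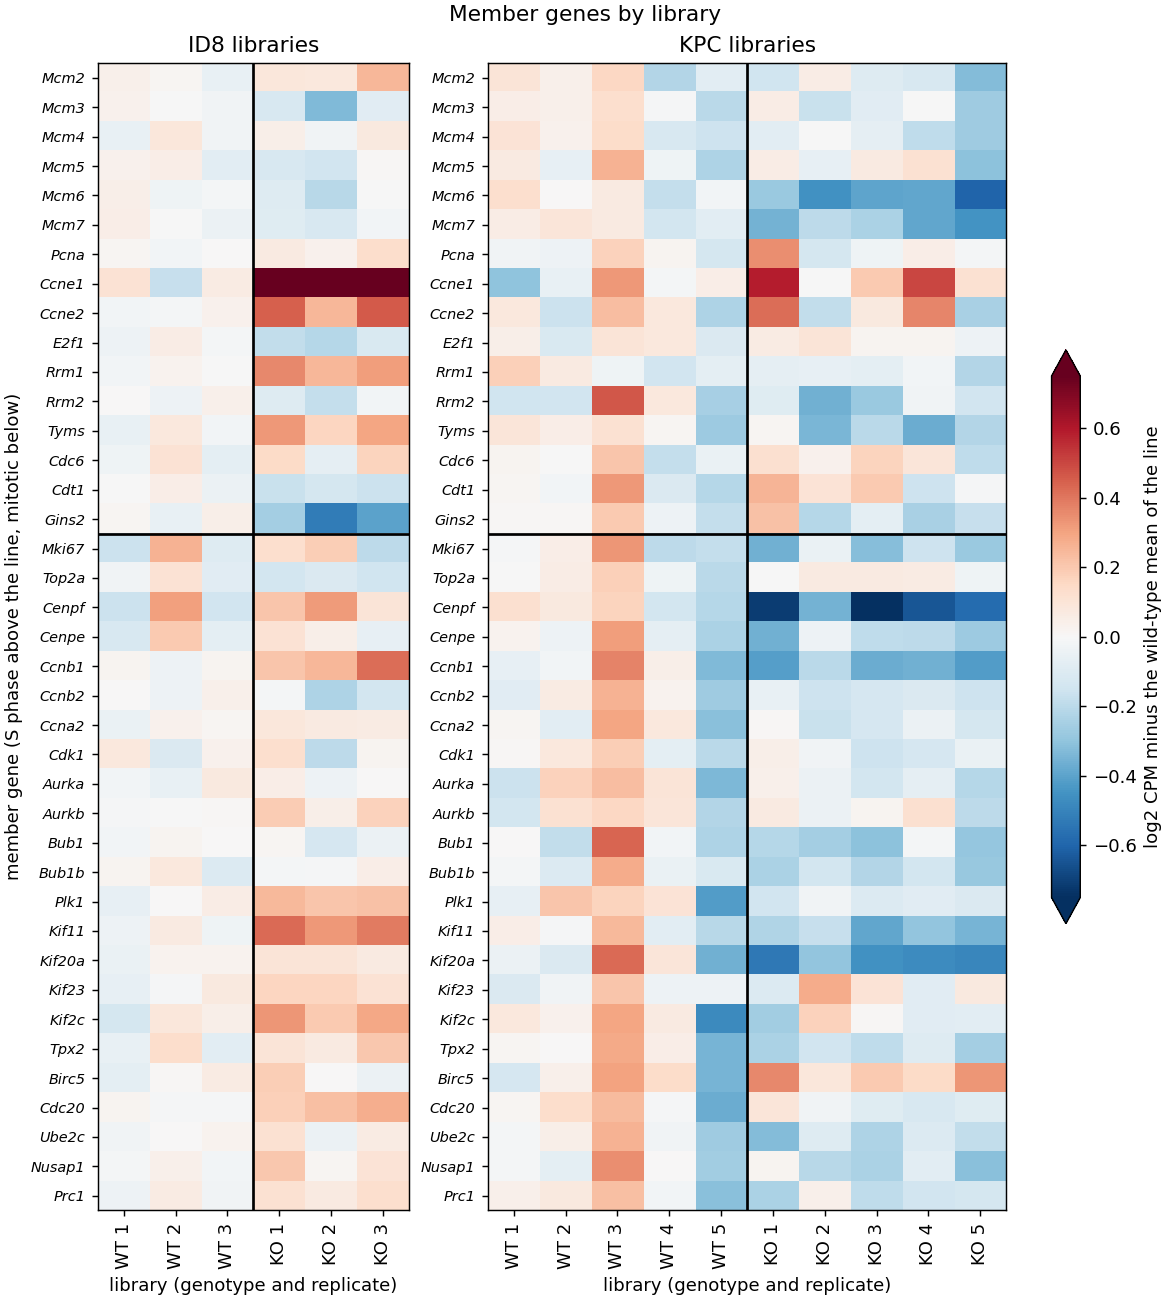
Log2 CPM of each member (rows) in each library (columns), minus the wild-type mean of its line; the colour scale ends at 0.75 in either direction. Ccne1 stands out in the 3 ID8 knockout libraries, Mcm6 and Cenpf are blue in all 5 KPC knockout libraries, and KPC wild-type replicates 3 and 5 are red and blue across most rows.

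In KPC, the called members were all lower in knockout. At an edgeR adjusted p under 0.05, 0 members were higher and 5 were lower: Mcm6 and Mcm7 of the helicase, and Cenpf, Kif11 and Kif20a of mitosis. That is 12.8% of the members, against 13.7% of the 14283 genes tested (6.67% higher and 7.01% lower), so the share called was close to that of all genes. At an unadjusted p under 0.05, 0 were higher and 9 lower, and the DESeq2 and limma-voom tests each called 0 higher. Cenpf alone passed 1.5-fold, as 6.56% of all genes tested did. The fold change was below 0 for 30 of the 39 members, 20 of the 23 mitotic and 10 of the 16 S phase members, with medians of -0.14 and -0.09 against -0.01 for all genes. The groups did not overlap for 4 members, all lower in knockout (Mcm6, Mcm7, Cenpf and Bub1b), and for none that was higher, where 6.42% and 5.34% of all genes tested were lower and higher without overlap (11.8% in all).

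The helicase calls in KPC concerned 2 of the 6 subunits of the ring. Mcm6 was 159, 146, 153, 128 and 143 CPM in wild type (146 ± 11.6, SD, n = 5) and 120, 106, 111, 111 and 96.1 CPM in knockout (109 ± 8.71), so that the highest knockout library was below the lowest wild-type library (log2 fold change -0.42, SE 0.0758, edgeR adjusted p = 0.00824). Mcm7 was 144, 148, 145, 126 and 131 CPM in wild type and 108, 121, 118, 106 and 102 CPM in knockout, again without overlap (-0.33, SE 0.0701, adjusted p = 0.0164). The other four subunits were not called and had log2 fold changes from -0.13 (Mcm2) to -0.03 (Mcm5). Mcm2, for comparison, was 98.9, 95.0, 103, 79.4 and 87.4 CPM in wild type and 83.4, 95.9, 86.5, 84.9 and 73.7 CPM in knockout, with overlapping groups (SE 0.0875, adjusted p = 0.33).

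The remaining S phase members of KPC did not pass the test. Tyms was 42.8, 41.7, 43.6, 40.7 and 33.3 CPM in wild type and 40.7, 31.7, 35.0, 31.1 and 34.5 CPM in knockout (log2 fold change -0.22, SE 0.0963, edgeR adjusted p = 0.134). Ccne1 was 6.36, 7.57, 9.91, 7.79 and 8.15 CPM in wild type and 11.9, 7.87, 9.03, 11.2 and 8.53 CPM in knockout (0.29, SE 0.155, adjusted p = 0.221). Their groups overlapped, with knockout replicate 1 the highest of its group for both genes. Ccne2 (0.10, SE 0.160), Pcna (0.05, SE 0.0935) and E2f1 (0.03, SE 0.0714) had adjusted p values of 0.691, 0.737 and 0.791. Rrm1, higher in the ID8 knockout, was 122, 112, 105, 97.3 and 102 CPM in KPC wild type and 103, 103, 102, 106 and 92.1 CPM in knockout (-0.09, SE 0.0696, adjusted p = 0.38).

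Cenpf, which encodes a large kinetochore and spindle matrix protein, gave the largest fall among the mitotic members of KPC. It was 53.2, 51.5, 55.04, 44.4 and 42.2 CPM in wild type (49.3 ± 5.62, SD, n = 5) and 29.8, 38.3, 28.03, 31.4 and 32.9 CPM in knockout (32.1 ± 3.91), without overlap (log2 fold change -0.62, SE 0.103, edgeR adjusted p = 0.00622). Its transcript is the longest among the members, and the other 769 tested genes with transcripts over 8000 bases had a median log2 fold change of -0.19 in KPC; the part of transcript length in its fall was not tested. Mki67, the next in length, had a log2 fold change of -0.24 and did not pass (SE 0.107, adjusted p = 0.146), and neither did Cenpe (-0.22, SE 0.102, adjusted p = 0.162).

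The calls on the spindle motors in KPC were closer to the threshold. Kif20a, the kinesin of the central spindle that cytokinesis requires, was 80.7, 77.4, 112, 88.6 and 64.8 CPM in wild type and 57.4, 68.0, 60.9, 60.0 and 59.3 CPM in knockout (log2 fold change -0.47, SE 0.126, edgeR adjusted p = 0.0342). Kif11 was 60.8, 58.3, 69.5, 55.4 and 50.8 CPM in wild type and 50.1, 51.9, 44.7, 47.8 and 46.1 CPM in knockout (-0.29, SE 0.0858, adjusted p = 0.0464). In both, wild-type replicate 5 lay below knockout replicate 2, and the groups overlapped. Their calls did not hold without single libraries: leaving out knockout replicate 1, for example, gave an adjusted p of 0.0825 for Kif20a and 0.0746 for Kif11. Ccnb1 was 54.6, 56.1, 73.6, 58.6 and 45.2 CPM in wild type and 42.8, 49.5, 43.9, 44.2 and 42.6 CPM in knockout and just missed the threshold (-0.37, SE 0.113, adjusted p = 0.0522), but passed without wild-type replicate 5 (-0.45, adjusted p = 0.03) and with DESeq2 (adjusted p = 0.0204). Top2a (0.03, SE 0.0715), Cdk1 (-0.07, SE 0.0783), Plk1 (-0.11, SE 0.108) and Cdc20 (-0.06, SE 0.103) had adjusted p values from 0.5 to 0.81. Birc5, or survivin, of the chromosomal passenger complex, had the most positive value among the mitotic members (0.21, SE 0.115, adjusted p = 0.222).

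**Figure D4:**
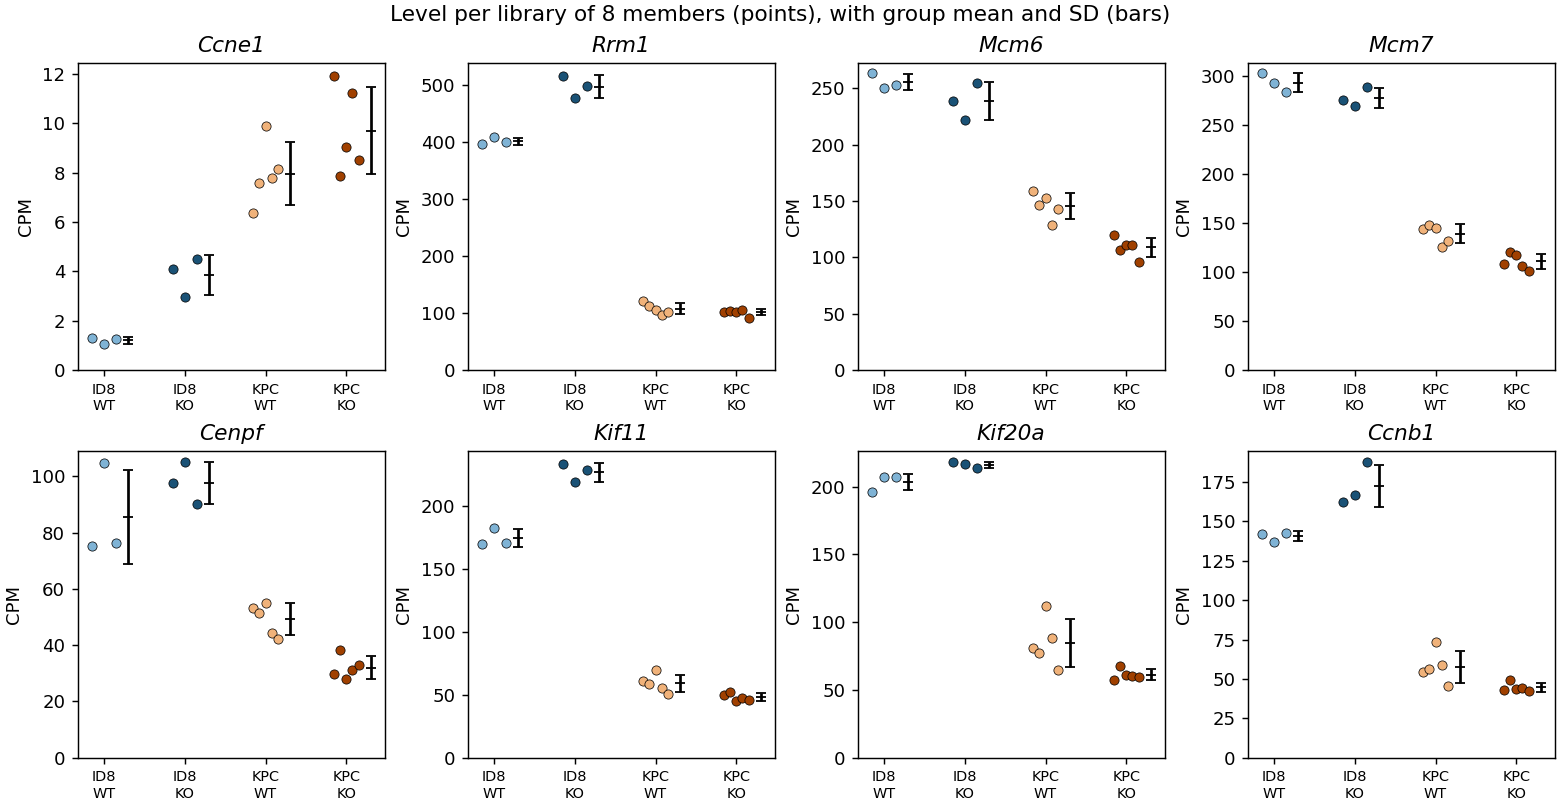
CPM of 8 members in every library (points) with the group mean and SD (bars), by line and genotype. Ccne1, Rrm1, Kif11 and Ccnb1 are higher in all 3 ID8 knockout libraries than in any ID8 wild-type library, and Mcm6, Mcm7 and Cenpf are lower in all 5 KPC knockout libraries than in any KPC wild-type library.

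The KPC samples also differed in markers of other cell types. The summed level of 14 skeletal muscle genes was 682 to 34550 CPM in wild type and 25.7 to 6869 CPM in knockout, with 0 of 14 called by edgeR and 2 lower at an unadjusted p under 0.05. When the mean log2 level of these muscle genes entered the fit as a covariate, Mcm6 was still called (log2 fold change -0.51, adjusted p = 0.0243), while Mcm7 (-0.32, adjusted p = 0.107), Cenpf (-0.49, adjusted p = 0.0619), Kif20a (-0.43, adjusted p = 0.186) and Kif11 (-0.27, adjusted p = 0.223) were not; that fit called 313 genes in all. Epithelial markers were higher in knockout for 6 of 7 genes, with sums of 4826 to 6041 CPM in wild type and 8108 to 9954 CPM in knockout, and leukocyte Ptprc ranged from 51.0 to 141 CPM and from 105 to 222 CPM. The summed T cell markers were 14.2 to 106 CPM and 76.9 to 140 CPM (2 of 8 tested called higher, Trac not being listed). Macrophage markers summed to 1870 to 4059 CPM and 3063 to 5033 CPM (0 of 9 called by edgeR, 7 higher at an unadjusted p under 0.05). Neutrophil markers summed to 26.1 to 60.5 CPM and 70.9 to 184 CPM (2 of 6 called higher). Fibroblast markers (13770 to 22650 and 16770 to 24900 CPM) and endothelial markers (304 to 458 and 349 to 479 CPM) had ranges that overlapped. The part of the epithelial and leukocyte differences in the member values was not tested. In ID8, 7 of the 8 T cell markers listed and 5 of 9 macrophage markers had 0 counts in every library, and the summed muscle markers were 26.2 CPM or less.

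The knockout effects of the 2 lines were then compared directly, in samples whose markers of other cells differed between the lines. In the interaction test over all 16 libraries, 7 members had a more negative effect in KPC than in ID8 and 0 had a more positive one (17.9% of the members, against 21.8% of the 14921 genes tested, 11.6% more positive and 10.3% more negative). At an unadjusted p under 0.05, 10 were more negative and 1, E2f1, was more positive, and the DESeq2 and limma-voom tests called 0 more positive. The 7 members were Ccne1 (log2 difference -1.36, SE 0.274, edgeR adjusted p = 0.00273), Rrm1 (-0.37, SE 0.0966, adjusted p = 0.0123) and Tyms (-0.46, SE 0.139, adjusted p = 0.0271) of S phase. The mitotic ones were Cenpf (-0.79, SE 0.171, adjusted p = 0.00432), Kif11 (-0.65, SE 0.117, adjusted p = 0.00125), Ccnb1 (-0.64, SE 0.158, adjusted p = 0.00958) and Kif20a (-0.54, SE 0.174, adjusted p = 0.0386). Tyms and Kif20a kept this call in 18 and 11 of 22 alternatives. Tyms lost it without ID8 wild-type replicate 1 (-0.44, adjusted p = 0.0744) or 3 or ID8 knockout replicate 1 or 3, and Kif20a lost it without any 1 of the 6 ID8 libraries (without wild-type replicate 1, -0.51, adjusted p = 0.0924), without KPC wild-type replicate 4 or KPC knockout replicate 3, 4 or 5, and with the replicate block (adjusted p = 0.0567). Of the 7 members, 4 differed by at least 1.5-fold (Ccne1, Cenpf, Kif11 and Ccnb1), as 12.2% of all genes tested did. The sign was negative for 31 of 39 members, 20 of them mitotic, with a median of -0.22 against 0.01 for all genes. Kif11 was the one member called in both lines, in opposite directions. For Mcm6, which fell in KPC and was not called in ID8, the difference between lines did not pass (-0.30, SE 0.111, adjusted p = 0.0684), and for Mcm7 it did not either (-0.22, SE 0.0938, adjusted p = 0.104).

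The KPC wild-type libraries shifted together across most members. There, replicate 3 was the highest of its group for 22 of the 23 mitotic and 13 of the 16 S phase members, and replicate 5 was the lowest for 21 and 9 of them. In the KPC knockout libraries the order differed by class. Replicate 1 was the highest for 8 and the lowest for 0 of the 16 S phase members. Among the 23 mitotic members it was the highest for 7 and the lowest for 8, and replicate 2 was the highest for 13. Replicate 5 was the highest for 0 of the 39 members and the lowest for 17, of which 10 were S phase and 7 mitotic. The mean log2 CPM of the mitotic members was 6.07 in replicate 3 and 5.52 in replicate 5, with 5.79, 5.81 and 5.85 in replicates 1, 2 and 4. The knockout libraries lay between these, at 5.68, 5.74, 5.64, 5.70 and 5.62. Group means were 5.81 ± 0.196 (SD, n = 5) in wild type and 5.68 ± 0.0453 in knockout, so the spread was wider in wild type and the knockout mean was within 1 wild-type SD. The S phase mean was 5.52 ± 0.120 in wild type and 5.47 ± 0.115 in knockout, a difference smaller than either SD. In ID8 the mitotic mean was 6.98 ± 0.0415 (n = 3) in wild type and 7.08 ± 0.0363 in knockout, every knockout library above every wild-type library. The S phase mean of ID8 was 6.37 ± 0.0118 in wild type and 6.46 ± 0.0867 in knockout, and there knockout replicate 2 (6.37) was level with wild type. The ID8 knockout libraries also shifted together across the S phase members. Replicate 2 was the lowest of its group for 15 of the 16, and replicate 3 was the highest for 12 and the lowest for 0. The difference between the mitotic and S phase means was 0.617 ± 0.0466 and 0.613 ± 0.0723 in ID8 wild type and knockout, and 0.286 ± 0.0898 and 0.206 ± 0.112 in KPC. By these means the balance of the classes moved by less than the spread in either line. The ID8 S phase mean includes Ccne1, whose log2 fold change of 1.67 was the widest of any member. By the median log2 fold change, the ID8 classes stood at -0.02 (S phase) and 0.09 (mitotic). The balance without Ccne1 was not tested.

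**Figure D5:**
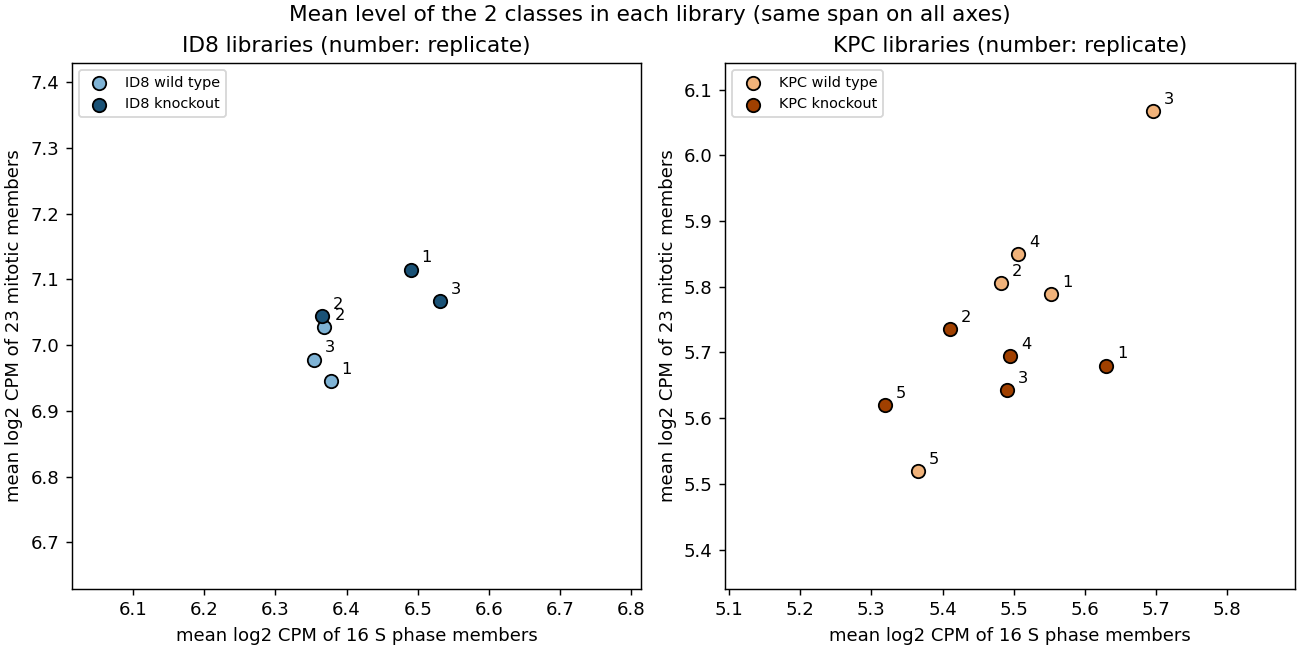
Mean log2 CPM of the 16 S phase members (x axis) against that of the 23 mitotic members (y axis), 1 point per library, on axes of equal span. KPC wild-type replicates 3 and 5 lie at the top and bottom (6.07 and 5.52 on the y axis), with the 5 knockout libraries between them.

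The members were mostly higher in ID8 than in KPC. With the wild-type libraries of both lines on 1 scale, 36 of 39 members were higher in every ID8 library than in every KPC library, where 32.7% of all genes tested were, and 2 were lower, where 44.7% were. The median ratio of ID8 to KPC was 1.91 for S phase members and 2.46 for mitotic members. Rrm1 had the highest ratio (3.93; 413 ± 4.74 CPM, SD, n = 3, in ID8 and 105 ± 8.81, n = 5, in KPC), followed among mitotic members by Aurkb (3.50) and Ccnb2 (3.26). The exceptions were Ccne1, at 1.24 ± 0.142 CPM in ID8 and 7.77 ± 1.23 CPM in KPC (ratio 0.16), and Kif23, at 74.4 ± 3.57 and 107 ± 9.03 CPM (0.694), while the levels of Cenpe overlapped. These ratios compare samples of which the KPC ones carry leukocyte, vessel and muscle transcripts and the ID8 ones carry few, and that part was not tested.

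The other genes of the pathway were read from lists by function, none of which holds a member. In ID8, spindle motor, condensin and cytokinesis genes were called higher in 12 and lower in 2 of 22 cases (median log2 fold change 0.15), and kinetochore and checkpoint genes in 8 and 4 of 18 (0.14), where 25.4% of all genes tested were called higher and 25.5% lower. Ncapg2, a condensin II subunit, rose from 117 ± 6.27 to 144 ± 1.72 CPM (SD, n = 3; log2 fold change 0.30), and Incenp, the scaffold of the passenger complex, rose from 129 ± 6.78 to 179 ± 4.31 CPM (0.48). In KPC the same lists had 0 higher and 2 lower of 22 (-0.19), and 1 higher and 2 lower of 18 (-0.07), where 6.67% of all genes tested were higher and 7.01% lower. Aspm, the spindle pole protein, fell from 37.1 ± 2.88 to 24.4 ± 2.48 CPM (n = 5; -0.61, edgeR adjusted p = 0.00273), and Sgo2a, a protector of centromere cohesion, from 22.6 ± 2.34 to 16.0 ± 1.04 CPM (-0.51, adjusted p = 0.0078). Cenpm, of the centromere, went the other way, lower in ID8 (-0.25) and higher in KPC (0.76, adjusted p = 0.00547). The interaction test called 7 of the 22 motor, condensin and cytokinesis genes and 5 of the 18 kinetochore genes more negative in KPC, and 0 and 1 (Cenpm, 1.02) more positive, against 10.3% and 11.6% of all genes tested.

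Regulators of mitotic entry and exit were called higher in 4 and lower in 1 of 16 in ID8, and lower in 2 of 16 in KPC, where 50.8% and 13.7% of all genes tested were called in either direction. Foxm1, the transcription factor of the mitotic programme, was called in both lines in opposite directions: it was 135, 151 and 137 CPM in ID8 wild type and 175, 165 and 174 CPM in knockout (log2 fold change 0.28, SE 0.0518, edgeR adjusted p = 0.000264), and 65.4, 64.7, 71.9, 68.3 and 55.7 CPM in KPC wild type and 45.1, 58.3, 52.1, 56.1 and 53.8 CPM in knockout (-0.30, SE 0.0872, adjusted p = 0.0466). The ID8 groups did not overlap and the KPC groups did. The KPC call of Foxm1 lay next to the threshold, and Foxm1 was not followed singly through the alternatives. The difference between lines was -0.56 (SE 0.122, adjusted p = 0.00466). Gtse1, a G2 and S phase expressed protein, rose in ID8 (0.31), and the phosphatase Cdc25b, which activates Cdk1, fell in KPC (-0.28).

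Upstream of S phase, G1 cyclins, their kinases, the RB family and E2F genes were called higher in 10 and lower in 2 of 21 in ID8 (median 0.15) and lower in 2 of 21 in KPC (-0.12), with 6 more negative and 1 more positive in KPC by the interaction test. The shares of all genes tested were 25.4% higher and 25.5% lower in ID8, 7.01% lower in KPC, and 10.3% more negative and 11.6% more positive by the interaction. Ccnd1, cyclin D1, was 169, 167 and 166 CPM in ID8 wild type and 247, 237 and 252 CPM in knockout (log2 fold change 0.55, SE 0.0446, edgeR adjusted p = 3.6e-08), and Myc fell from 68.4 ± 2.14 to 50.01 ± 1.85 CPM (SD, n = 3; -0.45). In KPC neither was called (Ccnd1 -0.12, Myc 0.05), and E2f8, a repressor E2F, fell (-0.36, adjusted p = 0.0277) and rose in ID8 (0.34). Cdkn1a, the p21 inhibitor of cyclin-dependent kinases, rose in ID8 from 95.8, 86.7 and 92.9 CPM to 121, 123 and 124 CPM (0.41, adjusted p = 3.12e-06). In KPC it was 51.7, 48.0, 56.6, 66.2 and 42.9 CPM in wild type and 117, 50.8, 55.2, 106 and 78.2 CPM in knockout (0.62, SE 0.235, adjusted p = 0.1), with the knockout libraries widely spread. Of the 8 inhibitor genes listed, 3 were called higher and 1 lower of the 5 tested in ID8, and 0 of 8 in KPC by edgeR (1 higher and 2 lower at an unadjusted p under 0.05). The lower one in ID8 was Cdkn1b, at 128, 123 and 137 CPM in wild type and 114, 111.5 and 108 CPM in knockout, without overlap. In KPC, Cdkn1c was 3.31, 3.05, 2.37, 4.03 and 3.23 CPM in wild type and 2.555, 0.898, 1.81, 2.00 and 2.09 CPM in knockout, with overlapping groups. Cdkn2a and Cdkn2b, the p16 and p15 inhibitors, had 0 counts in every ID8 library, whereas in KPC their means were 258 and 251 CPM (Cdkn2a) and 66.3 and 58.8 CPM (Cdkn2b) in wild type and knockout, neither called.

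Replication genes were called in both directions in ID8. Origin licensing and firing genes were called higher in 7 and lower in 1 of 20 in ID8 and in 0 of 20 by edgeR in KPC, where 1, Gins3, was higher at an unadjusted p under 0.05, and polymerase and fork genes in 5 and 5 of 23 in ID8 and lower in 1 of 23 in KPC. Of all genes tested, 50.8% were called in ID8 and 13.7% in KPC. Fen1, the flap nuclease of Okazaki fragments, rose in ID8 from 61.6 ± 4.55 to 97.1 ± 6.17 CPM (SD, n = 3; log2 fold change 0.66), and Pola1, the primase-bound polymerase, fell from 73.0 ± 3.99 to 55.5 ± 0.954 CPM (-0.40). Orc6, an origin recognition subunit, fell (-0.39) and Dbf4, the activator of the Cdc7 kinase, rose (0.26) in ID8. In KPC, Rfc1, the large subunit of the clamp loader, fell from 76.6 ± 5.39 to 62.4 ± 3.87 CPM (n = 5; -0.29, edgeR adjusted p = 0.0208). Nucleotide supply genes were called higher in 2 and lower in 3 of 10 in ID8, with Rrm2b, the alternative small reductase subunit, at -0.47 and Dut, the dUTPase, at -0.34, and lower in 1 of 10 in KPC, Mthfd1 of the folate cycle (-0.26, adjusted p = 0.0277).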

How the data were processed

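The authors deposited expected counts per gene, with HISAT, RSEM 1.2.8 and the build GRCm39 (mm39) named in the submitters' processing notes, and 7.92% to 8.96% of the values in each table were not whole. They were rounded, and a gene absent from a table was taken as 0. Groups were taken from the titles, which number the samples as biological replicates. No pair of replicates looked like a library deposited again (lowest chi-square per gene 4.36).

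Each line was fitted over all its genes with edgeR 4.0.16 in R 4.3.3 (TMM scaling, filterByExpr, robust quasi-likelihood F test), and calls required a Benjamini-Hochberg adjusted p under 0.05 across all genes tested. The difference between the knockout effects of the lines was an interaction contrast over 16 libraries. The SE was approximated from the fold change and its F value. CPM are on the TMM scale of each line, and class means used log2 CPM with a prior count of 2. The procedure was also run on simulated counts with changes of at least 1.5-fold, which does not bear on the smaller changes reported here. The alternatives tried were DESeq2 1.42.0 (its Wald test, and separately its size factors), limma-voom (limma 3.58.1) with sample weights, dropping the filter or setting it at 1 CPM, a replicate block, a joint fit, a skeletal muscle covariate, library sizes without muscle genes, a prior count of 0.5 and leaving out each library.

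Named with full values are, per class, the 4 members of smallest p in each line and in the interaction, members called in both lines, and 12 members named in every case (Mcm2, Mcm6, Pcna, Ccne1, Ccne2, E2f1, Mki67, Top2a, Cenpf, Ccnb1, Cdk1 and Plk1). Up to 2 genes of smallest p per pathway list and line were also chosen for naming. Of these, Nuf2, Ckap2, Anln, Prim2, Dtymk and Tfdp2 are not described, and some others are given by fold change alone. The other members named were chosen after their values had been seen. Members, lists and tests were chosen with earlier results of these data known. Promoter windows come from RefSeq (GRCm38.p6) and transcript lengths from GENCODE M21, matched by symbol for 32 and 39 of 39 members; no coordinate of the count tables' build was used. The count floor covers counting error only, while the SE also includes the spread between replicates.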

Additional observations from a re-analysis of the deposited data

Results flagged for a closer look

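In KPC, with 5 libraries per group, 84 sets of 5 values were checked for a library that stood apart, where chance marks about 1 in 20, and 6 had one (gap to the nearest library over the whole range, against a critical value of 0.71). In wild type, replicate 3 was high for Bub1b, a checkpoint kinase (54.8 CPM against 41.8 to 44.8, ratio 0.77), and for Kif23 (126 against 102 to 108 CPM, 0.761), and replicate 5 was low for Tyms (33.3 against 40.7 to 43.6 CPM, 0.719). In knockout, replicate 5 was low for Rrm1 (92.1 against 102 to 106 CPM, 0.729), replicate 2 was high for Ccnb1 (49.5 against 42.6 to 44.2 CPM, 0.763), and replicate 4 was high for Bub1 (25.9 against 21.1 to 22.5 CPM, 0.711).

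The knockout effect differed between lines by the interaction test (KPC minus ID8, log2) for Ccne1 (-1.36), Cenpf (-0.789), Kif11 (-0.649), Ccnb1 (-0.64), Kif20a (-0.535), Tyms (-0.462) and Rrm1 (-0.375), and for Trp53bp1 itself (0.757, a smaller fall in KPC).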

How the results depend on the processing

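Number of members called. In ID8, 12 were higher and 5 lower. DESeq2 called 13 in all, without Mcm2, E2f1, Aurkb and Kif23. A joint fit of the 4 groups gave 3 and 1, and leaving out single libraries gave 2 to 5 lower, with 2 without knockout replicate 2 and 3 without wild-type replicate 2. In KPC, 0 were higher under every alternative run and 5 lower. The replicate block gave 3, the skeletal muscle covariate 1, and leaving out single libraries 3 to 6, with 3 without wild-type replicate 1 or 2 or without knockout replicate 1, 3, 4 or 5. In the interaction, 7 were more negative in KPC, and leaving out single libraries gave 5 to 12; the 12, without KPC wild-type replicate 5, added Plk1, Kif2c, Tpx2, Cdc20 and Prc1. The cause was not tested.

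Single members. Ccne1, Rrm1, Gins2 and Kif11 kept their ID8 call in all 13 alternatives, and Mcm6 its KPC call in all 19. Mcm7 and Cenpf kept theirs in 18 of 19, Kif20a in 11 and Kif11 in 6. In the interaction, Ccne1, Rrm1, Cenpf, Ccnb1 and Kif11 kept their call in all 22, Tyms in 18 and Kif20a in 11, lost for instance without ID8 wild-type replicate 1 (adjusted p = 0.0744 and 0.0924). Among the members followed singly through the alternatives, signs turned for those below, none called in that comparison. With limma-voom, KPC values were -0.0035 (Pcna) and -0.00369 (Ccne2), and with the muscle covariate -0.0218 (Pcna), -0.139 (Ccne2) and 0.00166 (Plk1). Leaving out libraries gave -0.0465 to 0.17 for Mki67 and -0.088 to 0.0717 for Cdk1 in ID8, -0.0199 to 0.114 for Pcna, -0.0193 to 0.0756 for Top2a and -0.143 to 0.00111 for Cdc20 in KPC, and -0.107 to 0.0422 for Pcna and -0.113 to 0.0395 for Cdk1 in the interaction.

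Replicate numbers did not pair the samples. Correlations of same-numbered deviations were -0.0928, 0.135 and -0.111 in ID8 and -0.16, 0.587, 0.171, 0.276 and -0.536 in KPC, and 1 number per line matched best with itself. With the replicate block, 15 members were called in ID8, 3 in KPC and 6 in the interaction, against 17, 5 and 7. The median SE over the members was 0.0993 in KPC and 0.0529 in ID8, so a change of a given size was harder to call in KPC.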
